A study of Mus musculus with 6 samples.

Results

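The genes described here encode 10 subunits of the mammalian SWI/SNF complexes that are held by BAF or by the noncanonical complex ncBAF: *Arid1a*, *Arid1b*, *Dpf1*, *Dpf2*, *Dpf3*, *Smarca2*, *Smarca4*, *Smarcd3*, *Brd9* and *Ss18*. They were picked by name, as partners of a complex family whose PBAF form contains PBRM1, with earlier results of these data known. Accessible chromatin was measured at these genes by ATAC-seq, in which the Tn5 transposase inserts adapters where DNA is exposed. A locus was the gene body with 10 kb on each side on the mouse assembly GRCm38. The loci held 65 of the 66679 regions obtained by merging the reproducible peaks of both genotypes.

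The cells were primary smooth muscle cells from the oviducts of mice on day 2 of pregnancy, aged 8 to 12 weeks, and they were plated for some hours before nuclei were taken. There were 3 libraries from mice labelled WT and 3 from mice labelled Pbrm1 cKO. In the study's methods the cKO animals were Pbrm1 fl/fl with cre under the progesterone receptor gene (PR IRES-cre/+), so deletion was expected only in cells with a history of progesterone receptor expression, and the controls were Pbrm1 fl/fl littermates without cre. The labels do not say how many animals went into a library. The libraries are separate samples of a genotype. The limma SEs and p-values below rest on the spread between libraries, drawn for each region towards a spread fitted over all regions. The SE of a region can therefore differ from the spread of its own 6 values. Peak lists carry no reads over a deleted exon, so the loss of *Pbrm1* could not be checked here.

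SWI/SNF complexes use ATP to slide or evict nucleosomes. All of them contain an ATPase, either BRG1 (*Smarca4*) or BRM (*Smarca2*). The BAF form adds ARID1A or ARID1B and a DPF protein, PBAF has PBRM1, ARID2, BRD7 and PHF10 in their place, and ncBAF is built around BRD9 without any ARID subunit. In smooth muscle BRG1 and BRM act with serum response factor and myocardin at contractile genes.

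The list of each library held 298563 to 300000 entries over 201228 to 241237 distinct intervals. The median listed summit carried 13 to 15 tags in 5 libraries and 8 tags in WT library 3, the fewest at a listed summit, while read totals are unknown. A region without an entry is only below its list's threshold. Regions at a transcription start were found for 5 of 5 smooth muscle markers (*Acta2*, *Myh11*, *Cnn1*, *Tagln* and *Des*), 3 of 3 endothelial, 2 of 3 fibroblast, 1 of 5 epithelial and 0 of 3 leukocyte markers. The epithelial one was *Foxj1*, a factor of ciliated cells, at place 4097 of all regions, ahead of every smooth muscle marker (places 18292 to 47762). None of these 11 marker regions passed the test between genotypes (limma with Benjamini-Hochberg adjustment, lowest adjusted p = 0.409). The part of other cell types in the values below was not tested.

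Each region was ranked in each library by the best peak value over it, from 1 for the strongest to 66679. The place of a region is its order by the mean over the 6 libraries of the rank score, log2(66679/rank). Halving the rank number thus raises the rank score by 1.

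The sequences below are printed because they underlie the regions on which the values turn. The first pair is the 250 bp before a transcription start of *Dpf3* and of *Arid1a*, read in the direction of the gene, where the windows held no exon. The other windows are 201 bp around a summit, on the plus strand. Capitals mark matches, on either strand, to GGGCGG (SP/KLF), CCAAT (NF-Y), CCGGAAG (ETS), TGANTCA (AP-1), CATTCC (TEAD), the CArG box or the CTCF core motif, the last added after the values were seen. A match is a description of the letters and not a bound site.

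*Dpf3* upstream, chr12:83487737-83487986, minus strand: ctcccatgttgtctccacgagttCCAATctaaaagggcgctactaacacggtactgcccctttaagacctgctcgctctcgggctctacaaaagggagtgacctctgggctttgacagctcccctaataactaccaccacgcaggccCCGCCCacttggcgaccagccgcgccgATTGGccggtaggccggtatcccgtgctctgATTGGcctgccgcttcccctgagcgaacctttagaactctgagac
*Arid1a* upstream, chr4:133756770-133757019, minus strand: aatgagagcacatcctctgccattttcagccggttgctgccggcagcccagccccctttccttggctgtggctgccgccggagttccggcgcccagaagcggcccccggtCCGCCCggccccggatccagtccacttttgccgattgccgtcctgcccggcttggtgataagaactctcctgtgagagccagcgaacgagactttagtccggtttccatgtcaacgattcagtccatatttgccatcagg
*Arid1b* intron at 195.6 kb, chr17:5189787-5189987: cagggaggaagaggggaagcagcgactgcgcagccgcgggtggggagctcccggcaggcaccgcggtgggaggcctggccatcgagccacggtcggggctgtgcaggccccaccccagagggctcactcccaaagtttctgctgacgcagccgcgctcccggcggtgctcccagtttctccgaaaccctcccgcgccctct
*Arid1b* intron at 144.5 kb, chr17:5138806-5139006: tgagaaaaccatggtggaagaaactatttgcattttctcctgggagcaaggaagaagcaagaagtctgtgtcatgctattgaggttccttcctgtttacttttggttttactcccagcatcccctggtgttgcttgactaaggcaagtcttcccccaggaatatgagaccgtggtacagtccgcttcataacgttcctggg
*Arid1b* intron at 100.5 kb, chr17:5094753-5094953: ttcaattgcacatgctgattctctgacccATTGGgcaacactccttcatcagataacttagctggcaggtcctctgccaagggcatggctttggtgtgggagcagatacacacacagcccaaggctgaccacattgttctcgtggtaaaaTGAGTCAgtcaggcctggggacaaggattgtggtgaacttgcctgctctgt
*Dpf3* intron at 219 kb, chr12:83268499-83268699: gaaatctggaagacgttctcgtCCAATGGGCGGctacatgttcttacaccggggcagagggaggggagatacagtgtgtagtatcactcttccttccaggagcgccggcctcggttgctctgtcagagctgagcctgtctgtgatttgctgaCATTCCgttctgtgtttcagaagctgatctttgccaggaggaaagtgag
*Dpf3* intron at 150 kb, chr12:83337922-83338122: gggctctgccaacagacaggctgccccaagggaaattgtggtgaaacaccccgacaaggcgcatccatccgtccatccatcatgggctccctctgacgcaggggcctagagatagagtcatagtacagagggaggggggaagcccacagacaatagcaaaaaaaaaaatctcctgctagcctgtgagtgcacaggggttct
*Smarca2* intron at 113.3 kb, chr19:26718407-26718607: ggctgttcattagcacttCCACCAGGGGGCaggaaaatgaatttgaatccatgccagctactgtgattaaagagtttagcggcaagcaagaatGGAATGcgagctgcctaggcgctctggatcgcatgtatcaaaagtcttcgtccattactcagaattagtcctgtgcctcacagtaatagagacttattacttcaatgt
*Arid1a* intron at 27 kb, chr4:133729610-133729810: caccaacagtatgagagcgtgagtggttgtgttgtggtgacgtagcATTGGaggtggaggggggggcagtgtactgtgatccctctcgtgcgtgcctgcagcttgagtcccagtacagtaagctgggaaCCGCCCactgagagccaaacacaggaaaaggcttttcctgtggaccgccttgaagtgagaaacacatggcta

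The *Dpf3* upstream sequence held 3 CCAAT boxes and 1 GGGCGG in 250 bp, and that of *Arid1a* held 1 GGGCGG and no CCAAT. The *Arid1b* window at 195.6 kb, the strongest region of all 10 loci, had a GC content of 71.6% and no match to any of these motifs, nor had the *Arid1b* window at 144.5 kb, with 46.8% GC.

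All 10 genes had accessible chromatin within 1 kb of an annotated start of their own. The same was true of 62.7% of 21884 protein-coding genes. The best start region stood among the best 10% of all regions for 6 members (*Dpf3*, *Smarca4*, *Ss18*, *Dpf2*, *Smarca2* and *Brd9*), against 28.9% of protein-coding genes. The median place of the 10 best start regions was 3771.5, or 5.66% of the way down the order, against 11.3% for the 13732 protein-coding genes with such a region.

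**Figure D1:**
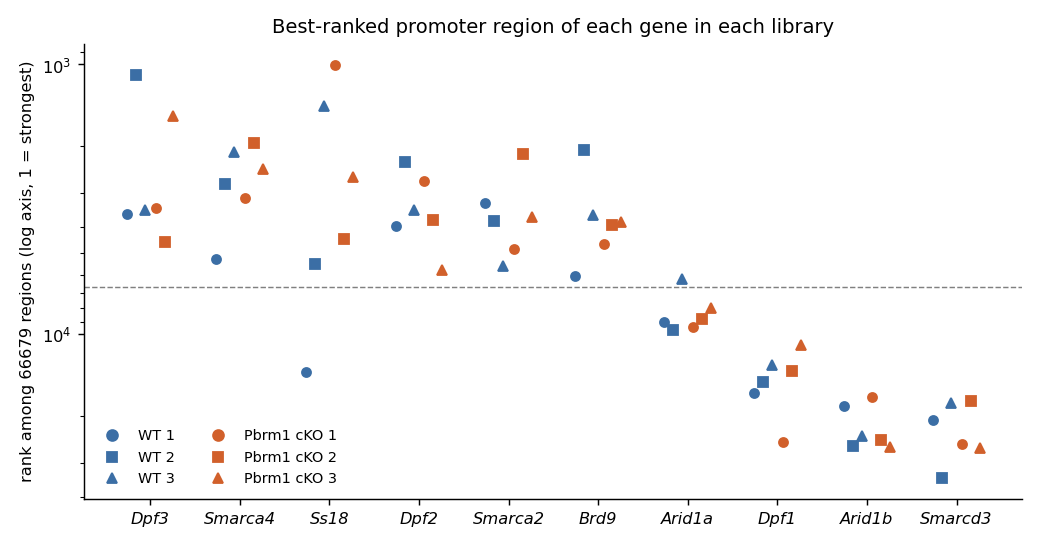
Rank among the 66679 regions (log axis, 1 at the top) of the best-ranked region at a start of each gene, in the 3 WT (blue) and 3 Pbrm1 cKO (orange) libraries, with genes ordered by place. The dashed line marks the best 10% of regions. For *Dpf3*, *Smarca4*, *Dpf2*, *Smarca2* and *Brd9* all 6 libraries lie above it, the 4 genes on the right lie below it in most or all libraries, and blue and orange points overlap for every gene.

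The ATPase genes were both open at their main start. The *Smarca4* start region (chr9:21615645-21616671, 11 bp before the gene start at its centre) had ranks of 5260, 2779 and 2107 in WT libraries 1, 2 and 3 and 3117.5, 1946 and 2445.5 in Pbrm1 cKO libraries 1, 2 and 3. The groups overlapped, and the difference was 0.35 ± 0.48 (SE) in rank score (adjusted p = 0.779, limma). The *Smarca2* start region (chr19:26604582-26605311) had ranks of 3269, 3804 and 5585 in WT and 4819, 2138 and 3683 in Pbrm1 cKO, again overlapping, with a difference of 0.29 ± 0.45 (adjusted p = 0.808).

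The ARID genes encode the large DNA-binding subunits that define BAF, and their start regions ranked lower. *Arid1a* had a pair of start regions with nearly the same place, 8191 at 2.3 kb inside the gene (chr4:133754258-133754628) and 8232 across the gene start (chr4:133756684-133757792). The first had ranks of 8962, 9616 and 6241 in WT and 9382, 8762 and 8010 in Pbrm1 cKO, a difference of -0.097 ± 0.36 (adjusted p = 0.928). *Arid1b* had 3 start regions, at places 38210, 51067 and 21387 in order along the gene. The best of them, 3.2 kb inside the gene (chr17:4997285-4997690), had ranks of 18442.5, 25856 and 23857 in WT and 17105, 24657 and 26064 in Pbrm1 cKO, and the groups differed by 0.016 ± 0.33 (adjusted p = 0.988). In the window of 201 bp around the summit, the GC content of the best start regions was 45.3% for *Arid1b* and 57.2% for *Smarcd3*, the lowest-ranked pair. It was 56.2% for *Dpf3*, 76.1% for *Smarca4*, 75.6% for *Ss18*, 54.2% for *Dpf2*, 75.1% for *Smarca2*, 60.7% for *Brd9*, 72.6% for *Arid1a* and 69.2% for *Dpf1*. The part of base composition in these ranks was not tested.

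The DPF genes encode alternative histone readers of BAF, of which DPF2 is the widespread form, and DPF1 and DPF3 are known from neurons and from heart and skeletal muscle. *Dpf3* had the highest place of all 10 members at its start, 2565 (chr12:83487511-83488006). Its ranks were 3586.5, 1092 and 3445.5 in WT and 3399, 4564 and 1554 in Pbrm1 cKO, which overlapped, and the difference was -0.28 ± 0.56 (adjusted p = 0.86). The *Dpf2* start (chr19:5912712-5913251), which also lies within 1 kb of a start of *Gm42067* and cannot be assigned to either gene, had ranks of 3954.5, 2290.5 and 3456.5 in WT and 2698, 3752 and 5755 in Pbrm1 cKO, a difference of -0.30 ± 0.45 (adjusted p = 0.802). *Dpf1* had its best start region 3.9 kb inside the gene (chr7:29307696-29308088), with ranks of 16471, 14981 and 13006.5 in WT and 24961, 13611.5 and 10931 in Pbrm1 cKO. These overlapped as well, with a difference of -0.070 ± 0.36 (adjusted p = 0.951).

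*Smarcd3* encodes BAF60C, a subunit of heart and muscle complexes, and *Brd9* and *Ss18* encode subunits of ncBAF, SS18 also being part of BAF. The main start of *Smarcd3* (chr5:24624122-24624899) was at place 35293, and its best start region was an internal one 21.3 kb downstream (chr5:24602889-24603278) at place 22017. That region had ranks of 20666, 34089 and 17869.5 in WT and 25486, 17647 and 26443 in Pbrm1 cKO, a difference of 0.027 ± 0.35 (adjusted p = 0.982). The *Brd9* start (chr13:73937275-73938184) is shared with the neighbouring gene *Trip13*, so its accessibility cannot be assigned to either gene. Its ranks were 6067, 2071 and 3615 in WT and 4628, 3920 and 3842 in Pbrm1 cKO, a difference of -0.21 ± 0.46 (adjusted p = 0.874).

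The *Ss18* start spanned a wide range of ranks among libraries. Its best region (chr18:14682079-14682897) had ranks of 13811, 5500.5 and 1420 in WT and 1001.5, 4446.5 and 2621 in Pbrm1 cKO, with 59, 76 and 80 tags at the summit in WT and 138, 92 and 113 in Pbrm1 cKO. WT library 1 was low and WT library 3 was high, so the groups overlapped in rank and the difference of 1.07 ± 0.68 did not pass the test (adjusted p = 0.468). The difference was 0.30 without WT replicate 1, 0.48 without Pbrm1 cKO replicate 1 and 1.94 without WT replicate 3. The tags, which were not scaled for depth, did not overlap between groups. Nor did they at the *Smarca4* start (87, 91 and 69 in WT against 115, 113 and 115 in Pbrm1 cKO). The *Brd9* start was likewise apart in tags (77, 87 and 56 against 97, 91 and 96), and the remaining best start regions overlapped. The share of all regions with tags apart was not counted, so no genotype difference is drawn from these tags. In rank the groups overlapped at each of these starts. The median listed summit carried 8 tags in WT library 3 and 13 to 15 in the other libraries. A second *Ss18* region (chr18:14681913-14682019) had an entry in 1 library, WT library 2, where one long interval covered both regions. Its difference of -1.21 ± 0.60 (adjusted p = 0.336), the largest of the 65 in size, therefore rested on that interval, and without WT replicate 2 it was -0.015.

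The loci differed in how many regions they held, starts included. *Arid1b* had 18 regions, more than 99.1% of protein-coding genes, 15 of them in introns, while *Arid1a* had 10, *Smarcd3* 8, *Smarca2* 6, *Dpf3* and *Smarca4* 5 each, *Dpf2* and *Ss18* 4 each, *Dpf1* 3 and *Brd9* 2. The median protein-coding gene had 2. Per 100 kb of locus, *Arid1b* had 4.82 regions, close to the 4.46 of the median protein-coding locus. The sparsest was *Dpf3* with 1.70 and the densest *Smarcd3* with 14.9. Of the 65 regions, 25 were at a start of the gene itself, 4 at a start of a neighbour (*Pigv* at the end of *Arid1a*, *Tigd3* beyond *Dpf2*, and 2 of *Chpf2* beyond *Smarcd3*), 29 in introns, 3 in exons and 4 in flanks.

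**Figure D2:**
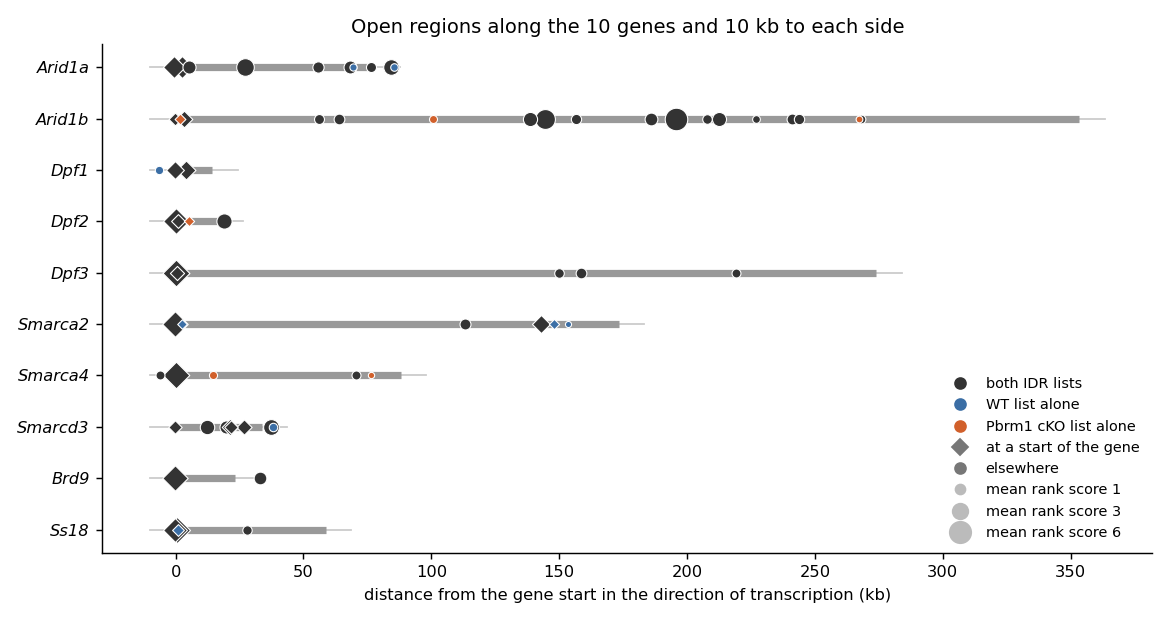
Regions along each gene in kb from the gene start in the direction of transcription. The thick bar is the gene body, the thin line the 10 kb flanks, symbol area grows with the mean rank score over 6 libraries, diamonds are at a start of the gene, and colours give the list that held the region. *Arid1b* shows its largest symbols inside the gene at 144.5 and 195.6 kb and small ones at its start, while *Dpf3*, *Smarca4* and *Smarca2* show their largest at the start.

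The strongest region of all 10 loci lay in *Arid1b*, far from its starts. The intron region 195.6 kb inside the gene (chr17:5189533-5190392) was at place 526, in the best 0.789% of all regions. Its ranks were 261, 841.5 and 338 in WT and 762, 1104 and 1001 in Pbrm1 cKO, with 144, 109 and 87 tags in WT and 144, 124 and 133 in Pbrm1 cKO. WT library 2 fell among the Pbrm1 cKO ranks, and the difference of -1.17 ± 0.77 did not pass the test (adjusted p = 0.484). The intron region at 144.5 kb (chr17:5138484-5139236) was at place 1879, with ranks of 2052, 1029 and 6246 in WT and 921, 1520 and 2691 in Pbrm1 cKO (difference 0.60 ± 0.64, adjusted p = 0.698). The other 13 *Arid1b* intron regions stood between places 11897 and 59985.

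The next strongest region away from a start was in the *Arid1a* intron at 27 kb (chr4:133729415-133730149, place 4257), with ranks of 4186, 6021 and 6178 in WT and 4410.5, 5854.5 and 1576 in Pbrm1 cKO. It ranked ahead of both *Arid1a* starts in the mean, its window held 1 CCAAT and 1 GGGCGG, and its difference was 0.65 ± 0.48 (adjusted p = 0.55). In *Smarcd3* an intron region at 12.3 kb (chr5:24611679-24612544, place 11114) ranked ahead of every *Smarcd3* start, with ranks of 5630, 15277 and 11204 in WT and 12714.5, 12874.5 and 14508.5 in Pbrm1 cKO. At *Brd9* the only region besides the start lay in the downstream flank (chr13:73970426-73971457, place 17323), nearest to a start of *Zdhhc11*, and at *Ss18* it was an exon region at 27.9 kb (chr18:14654729-14655294, place 35895).

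The 36 regions away from any start had AP-1 matches in 11 (30.6%), against 43.8% of the 45124 such regions of the whole set, and NF-Y matches in 25% against 22.7%. *Arid1b* held 7 of the 11 AP-1 windows. TEAD matches were in 22.2% against 18.3%, SP/KLF in 11.1% against 7.01%, CTCF core in 8.33% against 7.12%, ETS in 0 against 1.52% and the CArG box of serum response factor in 1 region (2.78%) against 1.26%. At the 25 start regions SP/KLF was in 44% against 49% of 18861 regions at protein-coding starts, NF-Y in 20% against 28.2%, TEAD in 12% against 8.91%, ETS in 4% against 11.2%, and AP-1, the CArG box and the CTCF core were in none, against 10.8%, 0.933% and 2.14%.

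The comparison between genotypes asked whether the loss of PBRM1, a PBAF subunit, went with changed accessibility at the member genes. Not all members lie outside PBAF, since BRG1 (*Smarca4*) is also a PBAF subunit. None of the 65 regions passed the test (limma, Benjamini-Hochberg over all regions, lowest adjusted p = 0.142), where 0.0675% of all 66679 regions passed, 45 in number. At an unadjusted p under 0.05 there were 8 member regions, 3 higher and 5 lower in Pbrm1 cKO. The background was 15.9% of all regions, 7.51% higher and 8.37% lower, so the count was near the background. The regions that passed among all 66679 differed by at least 1.20 in rank score, and the largest member difference was 1.21. No region of the whole set with a smaller difference was called with this score and 3 libraries a group. Most member differences thus lay below the size that this comparison called anywhere. With normal scores in place of this score, 2.33% of all regions passed the threshold, and 0 of the 65.

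In all, 27 member regions were higher and 38 lower in Pbrm1 cKO, with a median difference of -0.097 against 0.00055 over all regions. The ranks of the groups did not overlap in 9 regions that were higher and 6 that were lower, against 10.6% and 10.9% of all regions. The 25 start regions had a median of -0.093 (10 higher and 15 lower), and the 36 regions away from starts had -0.10 (17 higher and 19 lower). Among the latter, the 11 regions with an AP-1 match, 7 of them in *Arid1b*, had a median of 0.30 (7 higher and 4 lower). The 25 without had -0.16 (10 higher and 15 lower). An unadjusted p under 0.05 (limma) was found in 1 of the 11 and in 4 of the 25. This split was not tested, and the same split was not made over all regions.

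**Figure D3:**
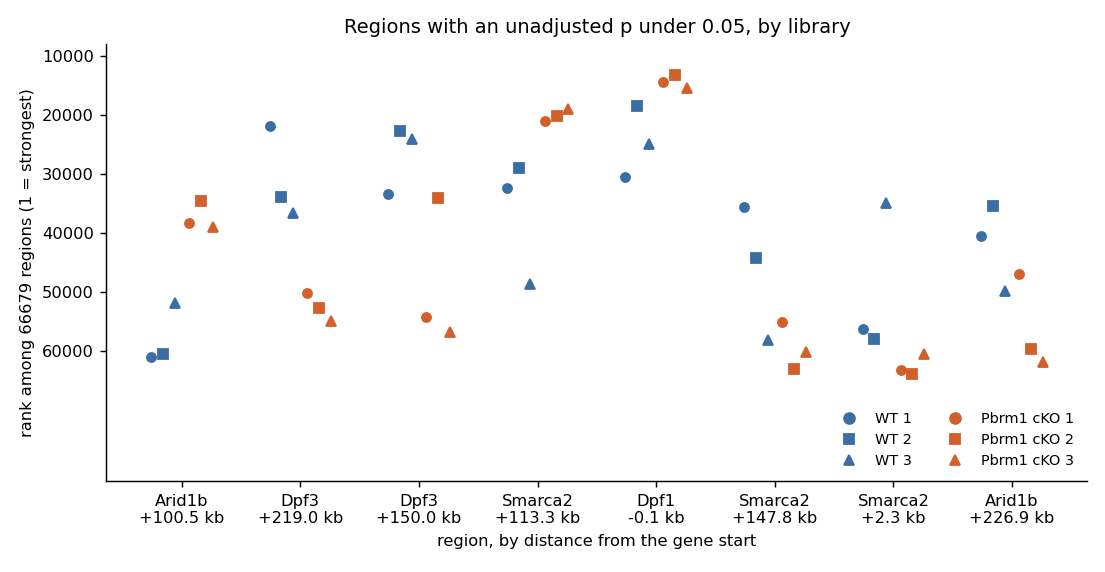
Ranks among the 66679 regions (1 towards the top) in each library for the 8 regions with an unadjusted p under 0.05, labelled by gene and distance from the gene start and ordered by p. All 3 Pbrm1 cKO points (orange) lie above all WT points (blue) for *Arid1b* at 100.5 kb, *Smarca2* at 113.3 kb and the *Dpf1* start, and below them for *Dpf3* at 219 and 150 kb and for *Smarca2* at 2.3 kb, and none passed the adjusted test.

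The smallest p belonged to the *Arid1b* intron at 100.5 kb (chr17:5094552-5095108). It had ranks of 60959, 60406.5 and 51846.5 in WT and 38276, 34599.5 and 38907 in Pbrm1 cKO, from 12, 11 and 8 tags and from 22, 22 and 19 tags. The tags were not scaled for depth, and the share of all regions with tags apart was not counted. The region was called only in the Pbrm1 cKO reproducible list. The groups did not overlap in rank, and the difference was 0.63 ± 0.20 (adjusted p = 0.142, limma). Its window held 1 AP-1 and 1 CCAAT match. This was a weak region, at place 47868, unlike the strong ones of the same gene. *Arid1b* had another region with an unadjusted p under 0.05, the intron at 226.9 kb (chr17:5220930-5221461), with the opposite sign. There the difference was -0.43 ± 0.20 (adjusted p = 0.302, limma), and the groups overlapped.

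At *Dpf3* all 5 regions were lower in Pbrm1 cKO. The intron at 219 kb (chr12:83268506-83268958) had ranks of 21820.5, 33827 and 36631.5 in WT and 50152.5, 52664.5 and 54943.5 in Pbrm1 cKO, with 31, 21 and 12 tags against 17, 14 and 13. The intron at 150 kb (chr12:83337190-83338147) had ranks of 33382.5, 22727.5 and 24116 in WT and 54129, 34000 and 56801.5 in Pbrm1 cKO. Neither pair of groups overlapped in rank, and the differences were -0.81 ± 0.27 (adjusted p = 0.158) and -0.84 ± 0.31 (adjusted p = 0.196). In tags, which were not scaled for depth, WT library 3 with 12 fell below all 3 Pbrm1 cKO libraries at 219 kb. The third intron region, at 158.6 kb, had the same sign but overlapping groups (-0.29 ± 0.32, adjusted p = 0.71), and the start described above overlapped fully. A second start region, 0.5 kb inside the gene (chr12:83486943-83487411), also had overlapping groups (-0.64 ± 0.36, adjusted p = 0.4).

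At *Smarca4* all 5 regions were higher in Pbrm1 cKO, by 0.16 to 0.42. In the upstream flank 6.1 kb before the start (chr9:21609902-21610296) the ranks were 48267, 44799 and 43294 in WT and 32795, 36958 and 31989 in Pbrm1 cKO without overlap. In the intron at 14.7 kb (chr9:21630720-21630952) they were 51276.5, 61290.5 and 44996 in WT and 41764.5, 39629.5 and 37370 in Pbrm1 cKO, also without overlap. Neither passed (adjusted p = 0.425 and 0.364). A shared direction among regions of one gene is a description, since neighbouring regions are not independent.

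*Smarca2* had differences of both signs. The intron at 113.3 kb (chr19:26718164-26718620), whose window held a CTCF core match and a TEAD match, had ranks of 32385.5, 29005.5 and 48621 in WT and 21054.5, 20202 and 19008 in Pbrm1 cKO. The 3 Pbrm1 cKO libraries lay close together ahead of all WT libraries, and the difference was 0.83 ± 0.32 (adjusted p = 0.219). Weak regions at internal starts, at 2.3 kb (chr19:26607166-26607535) and 147.8 kb (chr19:26752691-26753089), differed by -0.37 ± 0.17 (adjusted p = 0.301) and -0.40 ± 0.18 (adjusted p = 0.296), and both were in the WT reproducible list alone.

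The main start of *Dpf1* (chr7:29303608-29304063) had ranks of 30431, 18433 and 24918.5 in WT and 14456, 13196 and 15530 in Pbrm1 cKO, with 37, 43 and 23 tags against 63, 61 and 57. The tags were not scaled for depth, and the share of all regions with tags apart was not counted. This *Dpf1* start was the one region across a main gene start whose ranks did not overlap between groups. It was higher in Pbrm1 cKO by 0.75 ± 0.33 (adjusted p = 0.279). A pair of internal starts of *Smarcd3*, at 21.8 and 26.8 kb, were also higher without overlap, by 0.50 ± 0.28 and 0.53 ± 0.31 (adjusted p = 0.398 and 0.419). *Arid1a* had no region without overlap, 5 higher and 5 lower, and its lowest adjusted p was 0.494 in the exon region at 69.4 kb (-0.23 ± 0.15). *Dpf2* had none either, 1 higher and 3 lower, its lowest adjusted p being 0.763. At *Brd9* the flank region was lower without overlap, and its difference was -0.18 ± 0.32 (adjusted p = 0.831).

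**Figure D4:**
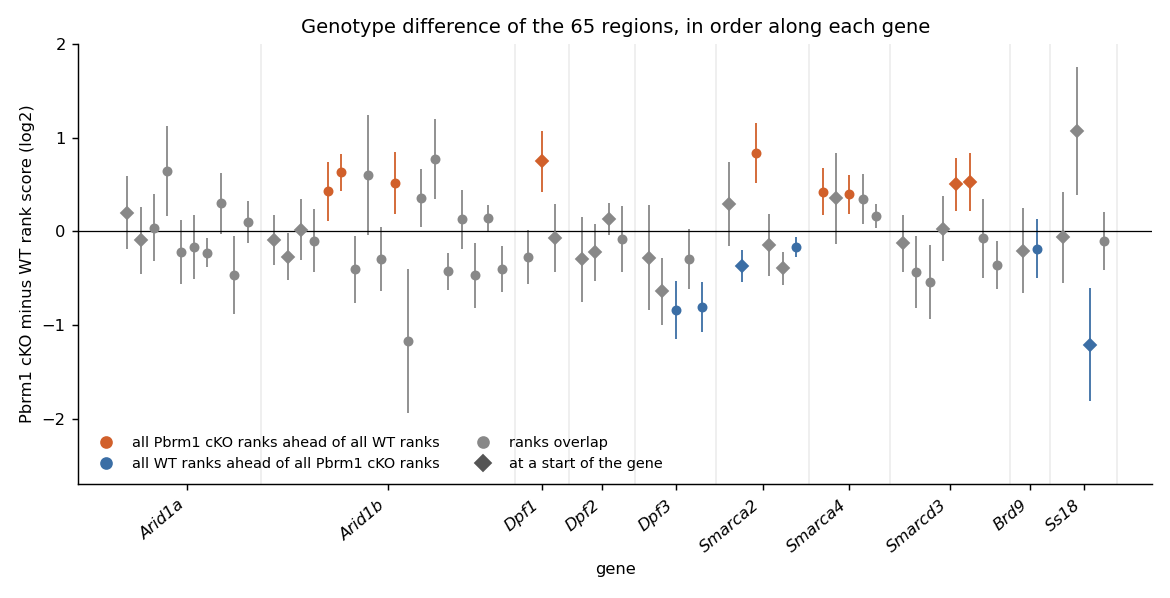
Pbrm1 cKO minus WT rank score (points) with the limma SE (bars) for the 65 regions, in order along each gene. Orange marks the 9 regions whose Pbrm1 cKO ranks were all ahead of WT, blue the 6 with the converse, grey the overlapping ones, and diamonds the starts. All *Smarca4* points lie above 0 and all *Dpf3* points below it, and none of the 65 passed the adjusted test.

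Most member regions were held by the reproducible lists of both genotypes, each made from pooled reads. Of the 65 regions, 51 (78.5%) were in both lists, 8 in the WT list alone and 6 in the Pbrm1 cKO list alone, against 69.2% in both over all regions. Counted per list, 13.3% of the 60 member regions of the WT list and 10% of the 60 of the Pbrm1 cKO list had no partner, against 15.8% of 56436 and 19.7% of 58935. All 14 regions held by 1 list stood at place 43295 or further down the order, and 12 of them had entries in all 6 libraries. The 3 held by Pbrm1 cKO alone at *Arid1b* and 2 at *Smarca4*, and the 3 held by WT alone at *Smarca2*, were among those 12. With 1 list a genotype there was no test.

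The distinct intervals of each library's relaxed list were also counted over the loci. Over the 10 loci together there were 211, 218 and 238 in WT and 225, 215 and 232 in Pbrm1 cKO, which is 222 ± 14.0 against 224 ± 8.54 (mean ± SD, n = 3 each). That was 0.0987% to 0.113% of each library's distinct intervals. The totals overlapped, and no locus could pass 0.05, since the smallest exact two-sided permutation p for 3 against 3 is 0.1.

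At 2 loci the counts did not overlap. The *Ss18* locus had 5, 7 and 6 intervals in WT and 14, 11 and 14 in Pbrm1 cKO (exact permutation p = 0.1), and among protein-coding loci 3.08% were higher without overlap. Most of the surplus lay outside the merged regions, with 2, 2 and 1 such intervals in WT and 9, 7 and 9 in Pbrm1 cKO, none of which reached more than 16 tags. Over the merged regions alone, a count added after seeing the data, there were 3, 5 and 5 against 5, 4 and 5. The *Smarca2* locus had 23, 24 and 26 in WT and 18, 21 and 21 in Pbrm1 cKO (exact permutation p = 0.1), and 4.03% of protein-coding loci were lower without overlap. The *Smarca2* groups met or overlapped in the gene body alone (21, 23 and 24 against 17, 21 and 21), over all entries (36, 39 and 35 against 28, 35 and 30), over the merged regions alone (9, 7 and 7 against 7, 7 and 7) and in covered length (5497, 5271 and 4800 bp against 4891, 5447 and 4985 bp). *Arid1b*, with the most intervals, had 78, 80 and 96 against 82, 84 and 92, and *Smarca4* had 15, 15 and 16 against 17, 14 and 15, both overlapping.

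**Figure D5:**
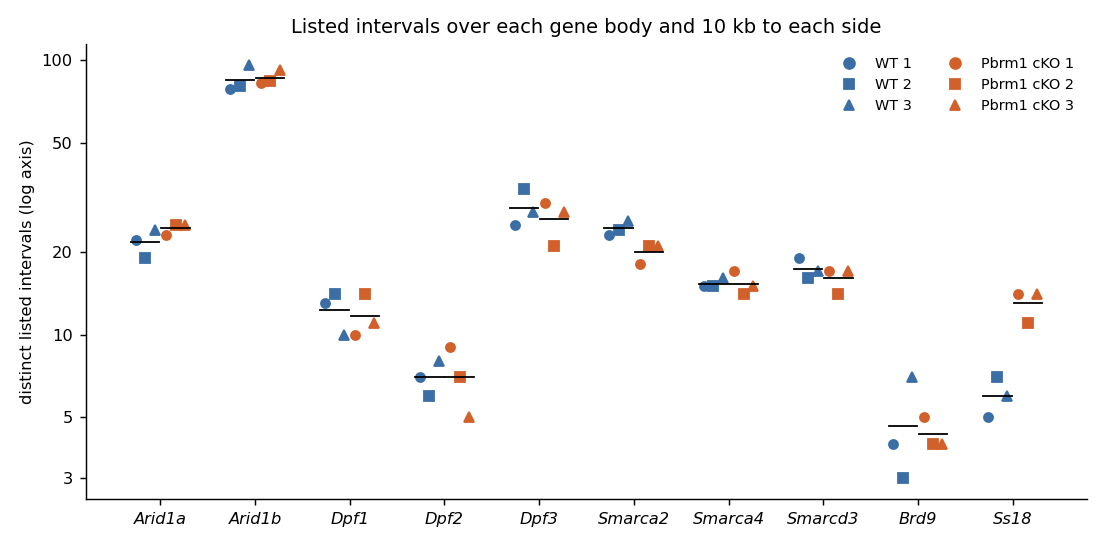
Distinct intervals of the relaxed lists over each gene body and 10 kb to each side (log axis), per library, with black lines for the group means. *Ss18* is the one locus with all 3 Pbrm1 cKO libraries (11 to 14) above all WT libraries (5 to 7), *Smarca2* the one with all of them below, and the other 8 overlap.

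The remaining SWI/SNF subunit genes were read at their best start region alone. All 19 had one. The 12 genes of the shared core ran from 0.189% to 46.2% in place, with *Actl6a* (an actin-related subunit) at place 126 the strongest of any subunit gene and *Actl6b*, its neuronal counterpart, at place 30808 the weakest of the core. The genes of PBAF alone ranked lower, *Pbrm1* at place 14804, *Brd7* at 15228, *Arid2* at 15666 and *Phf10* at 33722, where *Pbrm1* shares its start region with *Gnl3*. In the core, *Smarcc1* shares its start region with *Dhx30*, *Smarcc2* with *Mir8105*, *Smarcd1* with *Gm34939*, *Bcl7a* with *Gm15860* and *Bcl7c* with *Mir762*. *Ss18l1*, *Bicra* and *Bicral*, of BAF or ncBAF, stood at places 4313, 12292 and 20836, the first in a region shared with *Psma7*. None of the 19 passed the test (lowest adjusted p = 0.224, *Actl6b*, 0.84 ± 0.33 higher in Pbrm1 cKO), 12 were higher and 7 lower, and their median difference was 0.099. The *Pbrm1* start itself differed by 0.067 ± 0.37 (adjusted p = 0.955).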

How the data were processed

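The samples were 6 ATAC-seq libraries of primary oviductal smooth muscle cells, 3 WT and 3 Pbrm1 cKO, grouped and numbered by their labels. The authors called peaks with MACS2 on GRCm38, per the labels. The study's methods, which describe uterine stromal cells, name version 1.9.0 of ENCODE's ATAC-seq pipeline, and were taken to hold for these libraries too. The deposited relaxed lists hold, per library, up to 300000 entries at a p of 0.01, and the deposited conservative lists, one per genotype, hold peaks at an irreproducible discovery rate of 0.05. Each deposited entry gives a fold enrichment (a ratio over local background), a −log10 p, a −log10 q and a rescaled score. The peak values of the conservative lists come from pooled reads, and the replicates that entered them are not given in the sources used here.

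The 2 conservative lists were merged into 66679 regions, which were ranked per library by the best −log10 p of entries overlapping by at least 1 bp. Regions without an entry shared the last ranks. The rank score, log2(66679/rank), was fitted over all regions with limma 3.58.1 in R 4.3.3 (lmFit, then eBayes with its trend option), with Benjamini-Hochberg adjustment and a threshold of 0.05. The fit was also run on simulated data with an even spread and shifts larger than any member difference. That run cannot show how the fit performs on differences of the size given here. Read counts, which the study compared with DESeq2, were not used here, since the files used are peak lists. Ranks cannot show a shift that moves a whole library. Total depth is unknown. The number of tags at a summit was solved from its fold and p and came out within 0.2 of a whole number in 100% of entries.

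Gene models and starts came from GENCODE M21, a start region lay within 1 kb of any annotated start of the gene, and sequences were read from GRCm38 with RefSeq's promoter table for 9 of the 10 genes. The members and lists were chosen with earlier results of these data known. For each gene the best-ranked start region was described. The best-ranked other region and the region with the smallest p were also picked, but not all of these are located in the text. Other regions were added after their values were seen. Exact permutation tests, two-sided, were used for interval counts. Alternatives covered the score, the ranking column, the overlap, the IDR threshold, the window, a replicate block and leaving out each library. Shared numbers do not pair these libraries.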

Additional observations from a re-analysis of the deposited data

How the results depend on the processing

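No member region passed the adjusted threshold under any alternative that was run, normal scores included, which called 2.33% of all regions. The number with an unadjusted p under 0.05, 8 in the main comparison, was 4 when ranked by fold, 5 at an IDR of 0.01 or with entries in all 6 libraries, 18 of 112 regions with 50 kb flanks, and 3 to 9 when 1 library was left out (fewest without Pbrm1 cKO replicate 3). The replicate block gave 0 member regions past the threshold and changed no call, and same-numbered libraries did not deviate together (correlations -0.00289, -0.0549 and 0.00906).

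Several start differences changed sign or size, and the cause was not tested. Ranked by fold, they became -0.089 at *Arid1b* (3.2 kb), 0.14 at *Dpf2*, 0.28 at *Dpf3*, -0.062 at *Smarca2* and -0.13 at *Smarcd3* (21.3 kb). Leaving out 1 library gave -0.22 to 0.094 at *Arid1a* (2.3 kb), -0.17 to 0.16 at *Arid1b*, -0.32 to 0.27 at *Dpf1* (3.9 kb), -0.73 to 0.28 at *Dpf3*, -0.56 to -0.014 at *Dpf2*, 0.30 to 1.94 at *Ss18*, -0.035 to 0.55 at *Smarca2*, -0.022 to 0.64 at *Smarca4*, -0.25 to 0.22 at *Smarcd3* and -0.59 to 0.19 at *Brd9*. The regions with the smallest p of each gene, which were picked for that p, kept their sign in every alternative run, but without 1 library the *Dpf2* one (0.13) was 0.0088 (WT replicate 1 left out) or 0.31 (WT replicate 2) and the second *Ss18* one (-1.21) was -0.015 (WT replicate 2). The *Smarca2* interval counts of the groups met or overlapped with the gene body alone, with all entries and in covered length, but not among the 100000 best intervals, while those of *Ss18* stayed apart in all 4 of these counts. The interval difference over the 10 loci was 1.67 in the main count. Over all entries it was 15 (exact permutation p = 0.1, the smallest possible). It was -3.67 among the 100000 best intervals of each library and 4.67 with the gene body alone. In covered length it was 2868 bp (exact permutation p = 0.3). When 1 library was left out, the main difference ran from -4 (without WT replicate 1) to 9.5 (without WT replicate 3). With the gene body alone, 5 member regions were in the WT list only, against 8.

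The lists give no read totals, and WT replicate 3 had the fewest tags. With the log2 rank score, 3 libraries a group called no difference below 1.20, while normal scores called 2.33% of all regions.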
